A study of Mus musculus with 4 samples.

Results

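The enzymes that build, elongate and desaturate fatty acids were examined as a group of 10 genes in bone marrow neutrophils given amyloid-beta 40 (Aβ40). The genes were taken by symbol from the table of raw gene counts, which lists 54532 genes, and all 10 were found. The group was selected on the measured rise of Scd1 with Aβ40 in this same comparison and then filled up with genes of the same pathway. For that reason the values of the 10 genes are given as a description with no test. All 10 passed the filter on low counts that left 13479 genes for the fit.

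RNA was sequenced from bone marrow derived neutrophils of wild-type (WT) mice. Of 4 libraries, 2 came from cells given DMSO, a common solvent, and 2 from cells given Aβ40, which is released by cleavage of the amyloid precursor protein, at a dose of 20 µg/ml over 4 h. Per the series' design text, the experiment asked how Aβ40 brings about neutrophil extracellular traps, webs of chromatin that these cells release. The sources used here give no age, sex, strain background or duration of the DMSO exposure. Nor do they say whether a group's libraries had separate mice or cultures behind them, so errors and p-values cover the variation among these 4 samples alone, and that variation may be technical.

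Cells make fatty acids from citrate. ATP citrate lyase (Acly) cuts citrate to acetyl-CoA, acetyl-CoA carboxylase (Acaca) turns it into malonyl-CoA, and fatty acid synthase (Fasn) joins these units into palmitate. Elongases such as Elovl6 and Elovl5 then lengthen the chain. Stearoyl-CoA desaturases (Scd1 and Scd2 among them) put the first double bond into saturated chains, and Fads1 and Fads2 add double bonds to polyunsaturated ones. Srebf1 encodes SREBP-1, a transcription factor known to drive many of these genes, and Scd1 is also a known target of the liver X receptors.

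Total counts were between 17212264 and 19524125 per library, and 1 count was worth 0.0523 to 0.0585 CPM, a unit that scales counts to library size with the TMM factor. Neutrophil markers dominated every library, with a summed level of 12 markers of 135965 and 95718 CPM in DMSO 1 and 2, and 140276 and 133259 CPM in Aβ40 1 and 2. DMSO 2 stood below the other libraries in this sum. Libraries of the same group differed by more than sampling noise, where the chi-square per degree of freedom was 55.6 between the DMSO libraries and 16.9 between those with Aβ40. In bulk RNA, fewer cells of a type and less RNA per cell cannot be told apart.

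Scd1 was the member that stood out, and its close relative Scd2 did not follow it. Scd1 (ENSMUSG00000037071, mm10 chromosome 19, 44394451 to 44407709, minus strand) had 93 counts (DMSO 1), 137 (DMSO 2), 417 (Aβ40 1) and 455 (Aβ40 2). On the CPM scale these were 4.98, 7.37, 24.4 and 23.8. Both Aβ40 libraries lay far above both DMSO libraries, and they lay closer to each other than the DMSO libraries did. The exact Poisson intervals of these counts, at a confidence level of 95% and covering counting error only, ran from 4.02 to 8.71 CPM over the DMSO libraries and from 21.7 to 26.8 CPM over the Aβ40 libraries. The DMSO mean was 6.18 ± 1.68 CPM (SD, n = 2). The Aβ40 mean was 24.1 ± 0.420 CPM (SD, n = 2), or 3.90-fold higher, with a log2 fold change of 1.96 (SE 0.26). Leaving out DMSO 2 gave a log2 fold change of 2.26 and leaving out DMSO 1 gave 1.71. By log2 fold change Scd1 ranked 96 from the top among the 13479 tested genes.

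Scd2 (ENSMUSG00000025203, chromosome 19, 44293676 to 44306864, plus strand), a desaturase abundant in the brain, had 42.2 and 42.6 CPM in DMSO 1 and 2, and 31.5 and 37.5 CPM in Aβ40 1 and 2. The Aβ40 libraries were the lower ones and the groups did not overlap, with a log2 fold change of -0.30 (SE 0.19), which was -0.18 without Aβ40 1 and -0.45 without Aβ40 2. Per gene length, as deposited FPKM, Scd1 stood at 13.3% of the level of Scd2 in DMSO 1, at 19.5% of it in DMSO 2, at 87.4% in Aβ40 1 and at 71.6% in Aβ40 2. Scd2 thus remained the more abundant transcript in each of the 4 libraries, while Scd1 came near it with Aβ40. The summed FPKM of both genes was 8.74, 9.29, 10.6 and 11.7 in the same order of libraries, with both Aβ40 libraries above both DMSO libraries.

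Scd1 and Scd2 lie in a cluster of desaturase genes on chromosome 19 together with Scd3 and Scd4. Scd3 had 0, 0, 0 and 4 counts and Scd4 had 3, 1, 1 and 6 counts in DMSO 1, DMSO 2, Aβ40 1 and Aβ40 2, and neither passed the filter. Within 300 kb of Scd1 the table lists 15 other genes, of which 6 were tested. Leaving out Scd2, the 5 tested neighbours had log2 fold changes between -0.24 (Chuk, an NF-kB kinase gene) and 0.47 (Cwf19l1), so none came near that of Scd1. Scd1 shares 4.56% of its transcript sequence, counted as stretches of 50 bases, with transcripts of other genes, first of all Scd3, Scd2 and Scd4. A small part of its reads could therefore be assigned to a relative or dropped, and no other listed gene overlaps it in position.

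The other desaturase genes were split. Fads2 (ENSMUSG00000024665, chromosome 19, 10064164 to 10101503), the delta-6 desaturase that starts the polyunsaturated pathway, had 15 and 14 counts in DMSO 1 and 2, and 47 and 30 counts in Aβ40 1 and 2. These correspond to 0.804, 0.753, 2.75 and 1.57 CPM, again with both Aβ40 libraries above both DMSO libraries but well apart from each other. The log2 fold change was 1.47 (SE 0.59), a standard error over 2-fold that of Scd1. The counting interval of Aβ40 2, from 1.06 to 2.24 CPM, reached into that of DMSO 1, from 0.450 to 1.33 CPM. Fads1 (ENSMUSG00000010663, chromosome 19, 10182888 to 10196870), the delta-5 desaturase next to it in the same gene cluster, had 9.06, 7.96, 7.60 and 8.68 CPM in the same order. The groups overlapped, with a log2 fold change of -0.06 (SE 0.26). Leaving out DMSO 1 turned this small difference to 0.03.

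The genes that make palmitate had log2 fold changes below 0, with overlapping groups in each case. Acly (ENSMUSG00000020917, chromosome 11, 100476353 to 100528000), the most abundant member, had 96.6 and 120.2 CPM in DMSO 1 and 2, and 107.9 and 98.4 CPM in Aβ40 1 and 2. The Aβ40 libraries lay between the DMSO libraries, at a log2 fold change of -0.07 (SE 0.18), which was 0.08 without DMSO 2. Acaca (ENSMUSG00000020532, chromosome 11, 84129672 to 84401651) was among the scarcest, with 5.36, 5.75, 5.56 and 4.65 CPM and a log2 fold change of -0.12 (SE 0.31), which was -0.02 without Aβ40 2 and -0.26 without Aβ40 1. Of its transcript sequence 30.4% recurs in transcripts of other genes, first of all Gm5182, which had between 0 and 10 counts per library, so the level of Acaca is uncertain. Fasn (ENSMUSG00000025153, chromosome 11, 120805846 to 120824547) had 13.8, 11.5, 7.37 and 12.6 CPM, and Aβ40 1 alone stood apart as low. Its log2 fold change of -0.34 (SE 0.30) became -0.02 without Aβ40 1 and -0.80 without Aβ40 2.

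The elongase genes had log2 fold changes of 0.24 or less. Elovl5 (ENSMUSG00000032349, chromosome 9, 77917364 to 77984519), which extends polyunsaturated chains, had 46.3 and 50.1 CPM in DMSO 1 and 2, and 63.4 and 50.4 CPM in Aβ40 1 and 2. On this scale the groups did not overlap, yet Aβ40 2 lay next to DMSO 2, and in deposited FPKM it lay just below it, at 14.16 in each. The log2 fold change was 0.24 (SE 0.19), and 0.06 without Aβ40 1. Elovl6 (ENSMUSG00000041220, chromosome 3, 129532355 to 129638495), which extends palmitate to stearate, the substrate of the stearoyl-CoA desaturases, had 4.29, 5.97, 5.62 and 5.65 CPM. Its log2 fold change of 0.14 (SE 0.32) was -0.09 without DMSO 1 and 0.38 without DMSO 2.

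Srebf1 (ENSMUSG00000020538, chromosome 11, 60199089 to 60222581), the regulator of the group, had 31.5 and 42.6 CPM in DMSO 1 and 2, and 24.5 and 33.2 CPM in Aβ40 1 and 2. The groups overlapped and the log2 fold change was -0.36 (SE 0.23). It was -0.14 without DMSO 2, -0.16 without Aβ40 1 and -0.62 without Aβ40 2. Rai1, on the other strand, overlaps Srebf1 by 109 bases. The sources used here do not say whether reads were counted by strand.

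**Figure D1:**
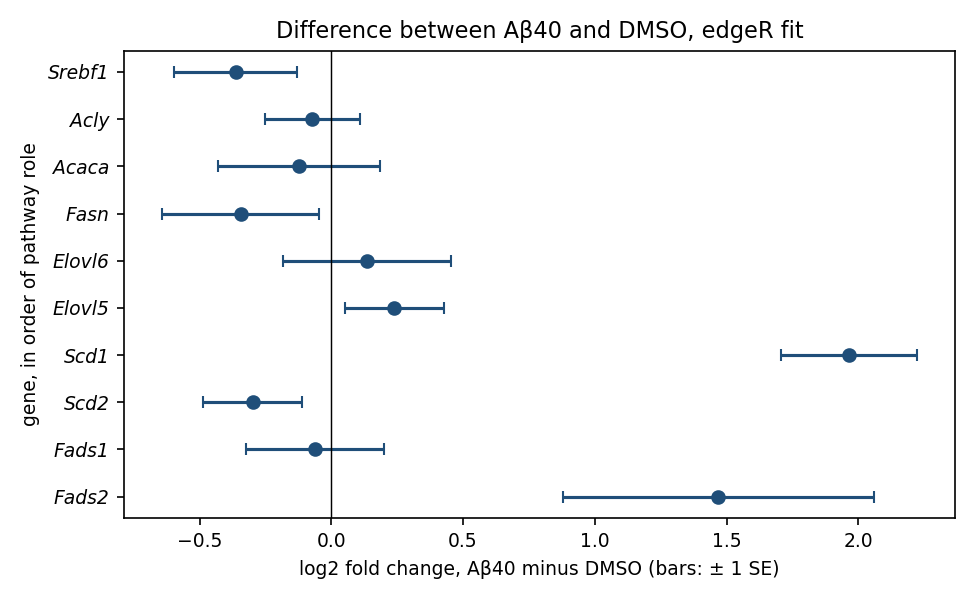
Log2 fold change of Aβ40 minus DMSO (x axis) for the 10 genes in order of pathway role (y axis), from the edgeR fit, with bars of 1 SE to each side. Scd1 at 1.96 and Fads2 at 1.47 lie apart from the other 8 genes, which run from -0.36 to 0.24.

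No calls are given for the 10 genes, since the rise of Scd1 was the reason for the choice of the group. Over all tested genes 0.126% were called at an adjusted p under 0.05, 17 higher and 0 lower. These calls come from the edgeR quasi-likelihood test with Benjamini-Hochberg adjustment, where 1648 genes were below an unadjusted p of 0.05. The number of calls over all genes depended on which group was left with 1 library. It fell without either Aβ40 library and rose without either DMSO library. In such fits the lone library is assumed to vary like the other group, so these calls are not comparable with those from all 4 libraries. On the TMM-scaled CPM, groups did not overlap for 4 of the 10 genes, Scd1, Fads2 and Elovl5 with Aβ40 above and Scd2 with Aβ40 below, where the share over all tested genes was 45.1%. In deposited FPKM the Elovl5 groups overlapped. The median log2 fold change of the 10 genes was -0.07, beside 0.01 over all tested genes. Their summed level was 255 and 295 CPM in DMSO 1 and 2, and 280.5 and 276 CPM in Aβ40 1 and 2, so the groups overlapped in total.

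Per gene length, the order of the 10 genes with DMSO was Acly, Elovl5, Scd2, Srebf1, Fads1, Scd1, Fasn, Elovl6, Fads2 and Acaca, from 20.4 ± 3.14 FPKM for Acly to 0.324 ± 0.0161 FPKM for Acaca (SD, n = 2 each). Of neighbours in that order, only Scd1 and Fasn overlapped between their libraries, at 1.27 ± 0.346 and 1.15 ± 0.150 FPKM (SD, n = 2 each). With Aβ40 Scd1 reached 4.91 ± 0.0656 FPKM (SD, n = 2) and overlapped with Srebf1 at 5.04 ± 1.10 FPKM (SD, n = 2), whose libraries in turn overlapped with those of Scd2. Fads2, at 1.41 ± 0.540 FPKM, overlapped with Fasn at 0.898 ± 0.334 FPKM, and Fasn overlapped with Elovl6 at 0.863 ± 0.00714 FPKM (SD, n = 2 each). The lengths behind these levels are those of the deposited table. For Fads2 that length is 1508 bases and for Fads1 3456, against 3295 and 4812 bases of exons in GENCODE M21, so the place of these genes in the order rests on the authors' annotation.

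**Figure D2:**
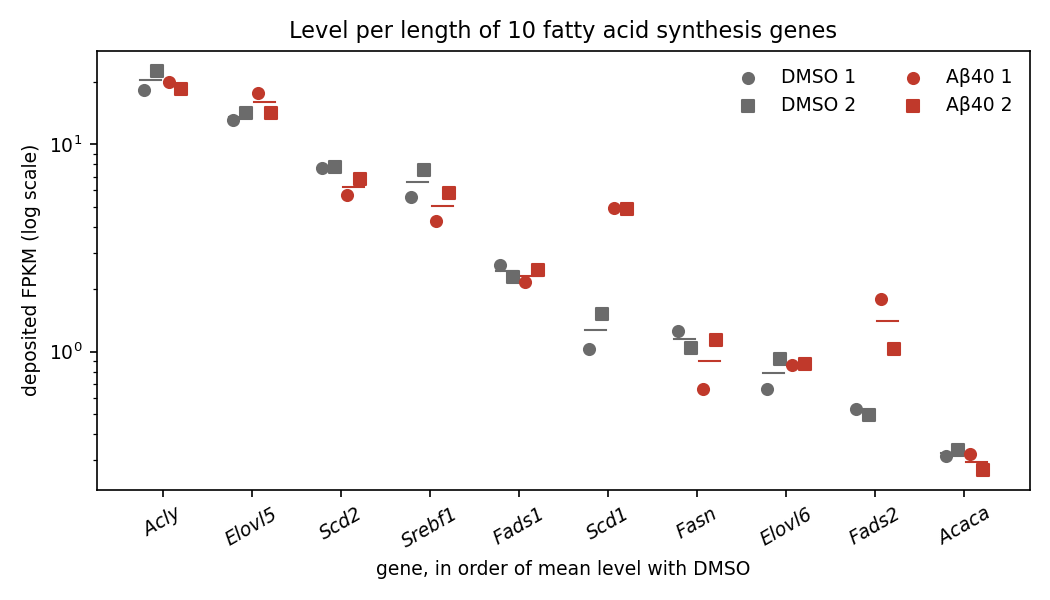
Deposited FPKM on a log axis (y) for each of the 10 genes (x, in order of the mean with DMSO), with grey symbols for the DMSO libraries, red symbols for the Aβ40 libraries and short lines for group means. Scd1 moves from the level of Fasn, near 1.27 FPKM, to that of Srebf1, near 4.91 FPKM, while Acly, Elovl5 and Scd2 keep the top 3 places.

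RefSeq promoters on GRCm38.p6 were found for 7 of the 10 genes, with 9 start sites in all, and were not found for Scd1, Scd2 and Fads1. The 250 bases before the start are shown for Fads2, the desaturase gene that was also higher in both Aβ40 libraries, and for Fasn and the most downstream of 3 listed starts of Srebf1, which were not. Capitals mark matches, on either strand, to the CCAAT box (CCAAT, the NF-Y motif), the GC box (GGGCGG, the Sp1 motif), the E-box (CACGTG) and the core of the sterol regulatory element (TCACCCC). Fads2 is at chr19:10101504-10101753, Fasn at chr11:120824548-120824797 and Srebf1 at chr11:60210472-60210721, all on the minus strand and written 5′ to 3′.
Fads2: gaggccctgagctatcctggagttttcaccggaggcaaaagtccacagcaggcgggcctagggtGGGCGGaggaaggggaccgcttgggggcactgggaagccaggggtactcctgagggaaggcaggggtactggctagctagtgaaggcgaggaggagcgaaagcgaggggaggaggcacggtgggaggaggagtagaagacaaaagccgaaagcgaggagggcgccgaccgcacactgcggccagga
Fasn: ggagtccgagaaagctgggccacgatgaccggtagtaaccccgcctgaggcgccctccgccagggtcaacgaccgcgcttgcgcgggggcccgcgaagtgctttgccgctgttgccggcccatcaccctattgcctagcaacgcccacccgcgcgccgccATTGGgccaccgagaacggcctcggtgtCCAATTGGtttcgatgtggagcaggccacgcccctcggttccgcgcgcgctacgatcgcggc
Srebf1: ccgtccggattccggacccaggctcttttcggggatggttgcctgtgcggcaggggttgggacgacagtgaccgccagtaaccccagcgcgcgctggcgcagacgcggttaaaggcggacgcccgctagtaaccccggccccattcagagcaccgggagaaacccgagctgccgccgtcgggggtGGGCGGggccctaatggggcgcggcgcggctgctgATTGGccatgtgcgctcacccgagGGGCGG

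The Fads2 window held 1 GC box and no CCAAT box, while the Fasn window held 3 CCAAT matches, of which 2 overlap each other, between 90 and 55 bases before the start. The Srebf1 window held 1 CCAAT match and 2 GC boxes. Among 32851 RefSeq promoter windows of 250 bases, 33.8% hold a CCAAT match, 32.7% a GC box, 6.02% an E-box and 4.31% the sterol element core. The E-box was found in 1 of the 9 windows, that of Elovl5, and the sterol element core in 0 of the 9. Only exact matches to the stated letters were counted, so variant forms of a motif were missed. These matches describe the letters only.

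Around the 10 genes, 5 lists, chosen with earlier results of these data known, covered related lipid genes: 127 genes, of which 110 were tested. Only the first of these lists holds other genes of fatty acid synthesis, elongation and desaturation. In the edgeR quasi-likelihood test 0 of the 110 were higher and 0 lower at a Benjamini-Hochberg adjusted p under 0.05, with a lowest adjusted p of 0.219. DESeq2 called 1 of them, Soat1, lower (adjusted p = 0.0320), and limma-voom called 0.

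Other genes of fatty acid synthesis, elongation and desaturation held 22 tested genes of 32, with a median log2 fold change of 0.02, beside 0.01 over all tested genes, and 0 below an unadjusted p of 0.05. The most abundant were Degs1, a desaturase of ceramide synthesis, at 0.14 (SE 0.18), and Tecr, the last reductase of the elongation cycle, at -0.06 (SE 0.18). Among genes above 5 CPM the largest differences were 0.50 (SE 0.29) for Acss2, which makes acetyl-CoA from acetate, and 0.28 (SE 0.34) for Acsl3, an acyl-CoA synthetase. Thrsp, Mlxipl, Elovl4, Acsl6 and Olah had 0 counts in every library. Mlxipl encodes ChREBP, a glucose-responsive activator of fat synthesis.

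The list of SREBP processing and cholesterol synthesis had 19 of 28 tested genes below 0 and a median of -0.12, with 0 called. Groups did not overlap for 12 of the 28, with Aβ40 below in 10 and above in 2, beside 21.9% below and 23.2% above over all tested genes. In the edgeR fit 2 of the 28 had an unadjusted p under 0.05 and 0 an adjusted one. Hmgcs1, which starts the mevalonate pathway and was the most abundant of the list, had 374 and 289 CPM in DMSO 1 and 2, and 232 and 259 CPM in Aβ40 1 and 2, a log2 fold change of -0.43 (SE 0.19; edgeR adjusted p = 0.414). Mvd, a later enzyme of that pathway, was at -0.54 (SE 0.22), and Msmo1, a sterol oxidase, at -0.12 (SE 0.20). Without DMSO 2, Hmgcs1 and Sqle were among 3 genes of the list that passed the threshold as lower, and without DMSO 1 the list held 1 such gene. Insig1, the sterol-regulated retention factor of SREBP, named after its value was seen, was at -0.32 (SE 0.17).

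The liver X receptor list held 12 tested genes of 13, with a median of -0.01 and 2 below an unadjusted p of 0.05. Apoe, a secreted lipid carrier and target of these receptors, had 58.5 and 59.4 CPM with DMSO and 82.8 and 85.6 CPM with Aβ40, a log2 fold change of 0.52 (SE 0.16; edgeR adjusted p = 0.328). The coactivator gene Ncoa3 was at -0.44 (SE 0.17) and the partner receptor gene Rxra at -0.48 (SE 0.26). Without DMSO 1, Ncoa3 passed the threshold as lower (edgeR adjusted p = 0.0468). The transporter genes Abca1 and Abcg1, targets of the same receptors named after their values were seen, were at 0.14 (SE 0.21) and -0.03 (SE 0.23). The receptor gene Nr1h3, likewise named after its value was seen, had 3.70 and 3.33 CPM with DMSO and 4.91 and 5.13 CPM with Aβ40, at 0.51 (SE 0.33).

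Storage and oxidation genes also lay on either side of 0. The triglyceride and lipid droplet list had 22 tested genes of 25, a median of 0.01 and 2 below an unadjusted p of 0.05. Plin2, the coat protein of lipid droplets, was at 0.06 (SE 0.16), and Hilpda, an inhibitor of lipolysis, at 0.46 (SE 0.22). Soat1, which esterifies cholesterol, had 186 and 191 CPM in DMSO 1 and 2, and 108 and 121 CPM in Aβ40 1 and 2, a log2 fold change of -0.72 (SE 0.17; edgeR adjusted p = 0.219). The uptake and oxidation list had 26 tested genes of 28, a median of 0.12 and 2 below an unadjusted p of 0.05. Its most abundant genes were Lpl, lipoprotein lipase, at -0.37 (SE 0.18), and Slc27a4, a fatty acid transporter, at -0.40 (SE 0.18). Its largest difference was that of Ppard, a fatty acid sensing nuclear receptor, at -1.07 (SE 0.25; edgeR adjusted p = 0.220), followed among genes above 5 CPM by Eci2, an isomerase of fatty acid oxidation, at 0.59 (SE 0.22). Without DMSO 1, Soat1, Pnpla2, Agpat1 and Ppard passed the threshold as lower and Etfa, Etfb and Eci2 as higher. Without DMSO 2, Soat1, Ppard, Slc27a4 and Etfb passed as lower and Hadha and Gpam as higher, where Gpam had 0 counts in DMSO 1. Etfb thus lay on opposite sides of 0 in these fits.

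**Figure D3:**
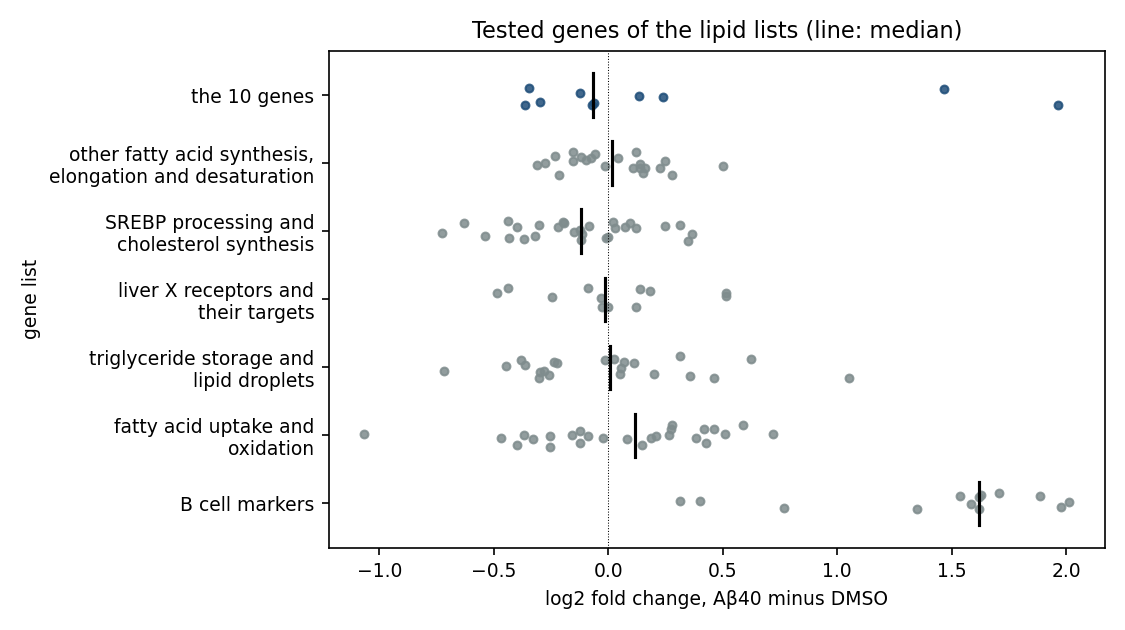
Log2 fold change of Aβ40 minus DMSO (x axis) for each tested gene of the group, of the 5 surrounding lipid lists and, for scale, of the 13 B cell markers (y axis, list), with a vertical line at each median. The lipid lists have medians between -0.12 and 0.12, with Scd1 and Fads2 at the far right of the 10 genes, where the B cell markers have a median of 1.62.

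The genes whose levels over the libraries were most like that of Scd1 included several of the B lineage. Likeness was measured over the 4 libraries as the distance between log2(CPM + 1) profiles, each centred on its own mean, among 8871 protein-coding genes whose mean reached 5 CPM. It describes 4 points that share their libraries. The nearest was H2-Ob, a chain of the class II antigen chaperone DO, at a distance of 0.11, with 9.65, 12.4, 40.9 and 40.7 CPM in DMSO 1, DMSO 2, Aβ40 1 and Aβ40 2. Then came Vpreb1 (0.24), a part of the pre-B receptor, Gimap6 (0.28), a lymphocyte GTPase, and Cecr2 (0.29), a chromatin remodelling factor. Rag1 (0.29), a recombinase, Dpp4 (0.35), a surface peptidase, and Ebf1 (0.37), a B-lineage transcription factor, followed. Of the 8 nearest genes, 4 belong to the B cell or precursor B cell marker lists. The search started from the Scd1 values on which the group was chosen, so it returns genes higher with Aβ40 by construction. The share of such markers among the 8871 candidates was not computed, so the 4 are a description only.

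The summed markers of several other cell types were higher in both Aβ40 libraries, as Scd1 was. Over all tested genes 0.126% were called higher, and in 23.2% the groups did not overlap with Aβ40 above. The 13 B cell markers summed to 1484 and 1483 CPM in DMSO 1 and 2, and 2254 and 2481 CPM in Aβ40 1 and 2. All 13 had non-overlapping groups with Aβ40 above, and their median log2 fold change was 1.62. Much of the sum came from Igkc (646, 541, 688 and 785 CPM) and Ighm (395, 483, 755 and 741 CPM). These 2 genes had log2 fold changes of 0.31 and 0.77, so the sum rose less than most of the markers did. The edgeR test called 5 of the 13 higher. The 8 precursor B cell markers summed to 56.0, 63.3, 145 and 139 CPM, with 1 of 7 tested called higher and all 7 with Aβ40 above. The remaining marker, Bok, was below the filter, with 7, 12, 7 and 0 counts in the same order. The 9 eosinophil markers summed to 1635, 1382, 3609 and 3644 CPM, with 1 of 9 called higher and all 9 with Aβ40 above. The 12 T and NK cell markers summed to 68.9, 65.1, 98.7 and 110.1 CPM, with 1 of 10 tested called higher. Of these 10, Aβ40 lay above in 8 and the groups overlapped in 2. Nkg7 alone held 40.6, 38.8, 40.1 and 49.6 CPM with overlapping groups, and Gzmb held 9.17, 8.55, 27.0 and 24.7 CPM. No listed gene of the B cell or eosinophil markers was at 0 in all libraries. Monocyte and macrophage markers summed to 3000.5, 2889.8, 3945 and 3408 CPM, of which Ly6c2 alone held 1871, 1718, 2615 and 2233 CPM. Of these 12 markers 0 were called, with Aβ40 above in 7 and below in 2. Stromal and endothelial markers summed to 37.8, 37.7, 54.1 and 52.1 CPM. Of 6 tested 0 were called, with Aβ40 above in 2 and below in 2. Over all tested genes Aβ40 lay below in 21.9%. Erythroid markers, at 4699, 1995, 3218 and 3382 CPM, overlapped between the groups. The part of these cell types in the Scd1 and Fads2 values was not tested.

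Fat cells carry much Scd1 in other tissues, and most of their markers were at or near 0 here. Of 10 adipocyte markers, 8 were below the filter, Lep, Cidec and Cidea had 0 counts in every library, and Adipoq, the adiponectin gene, had 0, 0, 4 and 0 counts in DMSO 1, DMSO 2, Aβ40 1 and Aβ40 2. Plin1, the lipid droplet coat protein of fat cells, had 1, 0, 0 and 0 counts. The list summed to 25.1, 21.8, 17.5 and 23.7 CPM, which came mainly from Lipe and Fabp4, the 2 tested markers. Fabp4, a fatty acid carrier, had 3.75 and 2.53 CPM in DMSO 1 and 2, and 4.33 and 6.01 CPM in Aβ40 1 and 2, a log2 fold change of 0.72 (SE 0.38). Lipe, hormone-sensitive lipase, was at -0.45 (SE 0.23). The part of fat cells in the Scd1 values was not tested.

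**Figure D4:**
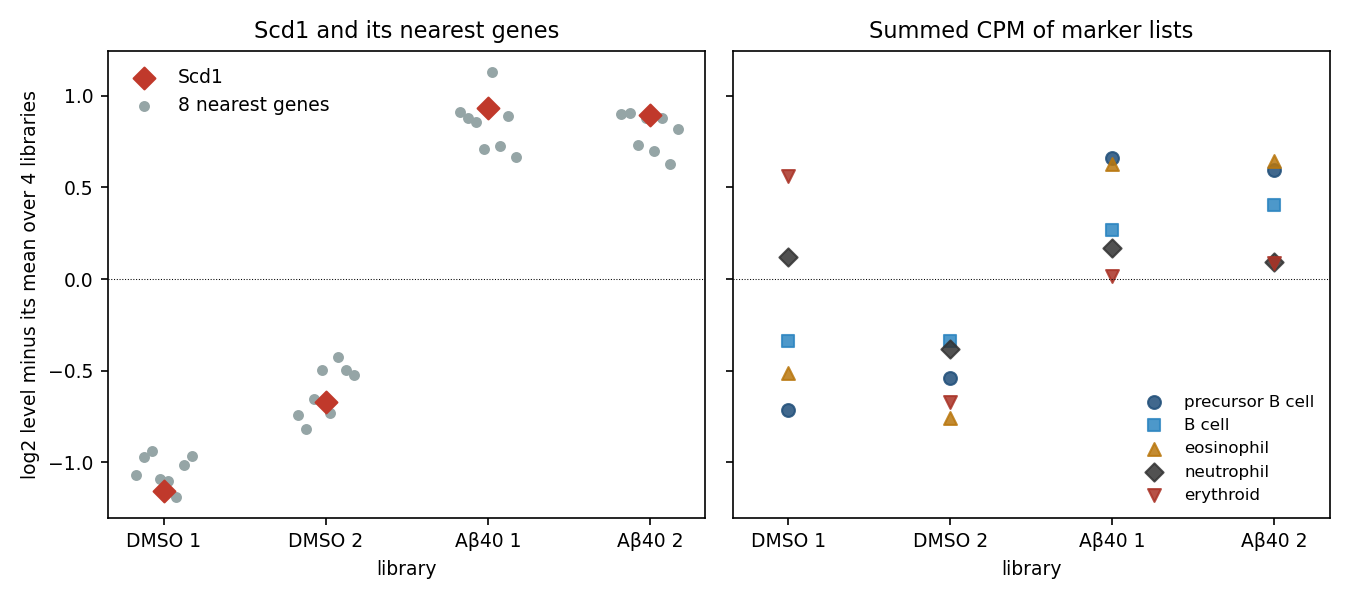
Log2 level minus its mean over the 4 libraries (y axis) in each library (x axis), on the left for Scd1 (red diamonds) and its 8 nearest genes (grey, log2(CPM + 1)), and on the right for the summed CPM of 5 marker lists. Scd1 and the nearest genes are low in both DMSO libraries and high in both Aβ40 libraries, as are the B cell, precursor B cell and eosinophil sums, while the neutrophil and erythroid sums are not.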

How the data were processed

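The members, the gene lists and the rule for named genes were chosen with earlier results of these data known. RNA was sequenced in 2 DMSO and 2 Aβ40 libraries. Per the submitters' processing notes, the tools were HISAT2 2.0.5 and featureCounts 1.5.0-p3, with mm10 as the build. The sources used here give neither the annotation release nor the strand setting. The authors deposited whole-number read counts per gene and FPKM. The deposited FPKM equal counts divided by gene length and by a library size proportional to the DESeq2 size factor, as checked on 9711 genes, so they carry a composition correction.

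The count analysis used edgeR 4.0.16 under R 4.3.3, filterByExpr with a minimum count of 10, TMM, and the quasi-likelihood test of Aβ40 against DMSO (2-sided, 2 residual degrees of freedom) with Benjamini-Hochberg adjustment over 13479 genes and a threshold of 0.05. Log2 fold changes come from that fit. Each SE is the absolute log2 fold change divided by the square root of the F statistic of the test. It thus rests on a variance moderated over genes and not on the libraries of that gene alone. Alternatives were DESeq2 1.42.0, limma-voom (limma 3.58.1), RLE or library size scaling, 3 other gene filters, a replicate block, each library left out, and log2(FPKM + 1) or log2(FPKM + 0.1) in limma. Named from each list were its called genes or, with 0 called, the 2 most abundant and the 2 with the largest difference above 5 CPM, besides those said to be named after their values were seen, genes called when a library was left out, and genes at 0 counts. Per marker list the sum was printed. Some genes that the rule names are not reported here. Gene overlaps and neighbours come from the deposited coordinates, and lengths and shared sequence from GENCODE M21.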

Additional observations from a re-analysis of the deposited data

How the results depend on the processing

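The log2 fold change of Scd1 stayed positive under all 15 alternatives. Its rise was the reason for the choice, and both Aβ40 libraries lay far above both DMSO libraries. Refits of these same libraries could therefore hardly turn its sign, and only the size of the difference is informative here. It was 1.39 by limma on log2(FPKM + 1), a scale that understates low genes, and ran from 1.71 to 2.26 when 1 library was left out. Fads2, whose groups did not overlap either, was for the same reason positive under all 15, between 0.65 on log2(FPKM + 1) and 1.80 without Aβ40 2. Acly and Elovl6 changed sign under 1 alternative each and Fads1 under 2. The other 5 members kept their sign.

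The number of genes called over all genes, 17, was 138 with DESeq2, 255 with no filter, 27 with the replicate block, and 0 by limma on log2(FPKM + 1) and on log2(FPKM + 0.1), where 1565 and 1545 genes had an unadjusted p under 0.05. It ran from 0 to 1276 when 1 library was left out. The cause was not tested. In the lipid lists, where 0 genes were called, no filter gave 1 in the storage list and 1 in the uptake and oxidation list, and DESeq2 gave 1 in the storage list. Leaving out 1 library gave 0 to 3 in the cholesterol list, 0 to 1 in the liver X receptor list, 0 to 3 in the storage list and 0 to 4 in the uptake and oxidation list. A lone library is then assumed to vary like the other group.

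The labels do not say what same-numbered libraries share. Their deviations correlated at -0.25, which cannot decide whether they were paired. With the replicate block the log2 fold change of Scd1 was 1.99. A crossed replicate block (DMSO 1 with Aβ40 2), added after seeing the data, called 721 genes, with 1 each in the cholesterol, storage and uptake lists. With 14 to 47 counts, Fads2 is limited by its low counts. Its deposited length is 1508 bases, against 3295 bases of exons in GENCODE M21. The part of depth or of this length in the low counts was not tested.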
